A study of Mus musculus with 4 samples.

Results

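The Kruppel-like factors (KLFs) are transcription factors that bind DNA through zinc fingers at their C-terminal end, and they recognise GC-rich and CACCC-type sequences. Their N-terminal parts differ and recruit different partners, so that some members mainly activate and others mainly repress. In macrophages, KLF2 and KLF4 are known for restraining inflammatory activation and KLF6 for promoting it, and KLF4 has been reported to switch on Ch25h, the gene deleted here. The family was followed through 10 genes, Klf2, Klf3, Klf4, Klf6, Klf7, Klf9, Klf10, Klf11, Klf13 and Klf16. They were found by gene symbol, and each stood on 1 locus of its own among 23735 loci of the table.

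RNA was sequenced from peritoneal macrophages of C57BL/6 mice of 2 genotypes, ApoE-/-/Ch25h+/+ (the Ch25h_WT group) and ApoE-/-/Ch25h-/- (the Ch25h_KO group). Loss of ApoE is thus shared by both groups by label. Cholesterol 25-hydroxylase, the product of Ch25h, makes the oxysterol 25-hydroxycholesterol. Mice aged 6 weeks received 3% thioglycolate, an irritant that draws macrophages into the peritoneal cavity, and the cells were collected 3 days later. The cells were cultured in DMEM with 10% serum and 1% penicillin-streptomycin, with no stated stimulus. The series names 12 mice per group and biological duplicates, without saying how the mice were shared out, so each group here is 2 libraries. Any p-value here rests on the spread between those libraries alone, which may be partly technical. With 2 libraries against 2, an exact two-sided permutation test of a single gene cannot go below p = 0.333, so tests rest on a model fitted across all loci.

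The libraries held an implied 9570000 to 12400000 fragments, with 13813 to 13970 loci above 0 FPKM in each (FPKM are fragments per transcript length and library size). As a check of the labels, Ch25h stood at 63.3 and 65.3 FPKM in Ch25h_WT and at 4.25 and 5.53 FPKM in Ch25h_KO. Apoe stood at 614 and 610 against 3683 and 3373 FPKM, so the groups also differed at a second locus. A value per locus cannot tell a disrupted transcript from a working one. All 8 macrophage markers were expressed, with Lyz2 at 19566 to 20537 FPKM and Adgre1 (F4/80) at 381 to 425 FPKM. Differences were tested two-sided with limma on log2(FPKM + 1), in the 10074 loci whose mean reached 1 FPKM. All 10 members passed that filter.

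No KLF member passed the test between genotypes. At a Benjamini-Hochberg adjusted p under 0.05 (limma), 0 of 10 members were called, where 44 of all 10074 loci were called (0.437%). At an unadjusted p under 0.05 (limma), 2 of 10 members passed, Klf11 on the higher and Klf9 on the lower side, a share of 20% beside 20.9% of all tested loci. By direction, the background at that p was 9.38% of loci higher and 11.5% lower in Ch25h_KO. The groups did not overlap for 7 of 10 members, 3 higher and 4 lower in Ch25h_KO. Among all tested loci 53.7% did not overlap, 23.4% higher and 30.3% lower. A log2 change above 0 was found in 4 members and one below 0 in 6, beside 45.7% and 54.3% of all tested loci. The members' median log2 change was -0.029 and that of all tested loci was -0.014. The median size of the change, whatever its sign, was 0.10 among the members and 0.095 among all tested loci. By these counts and sizes the family lay close to the background of the table.

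**Figure D1:**
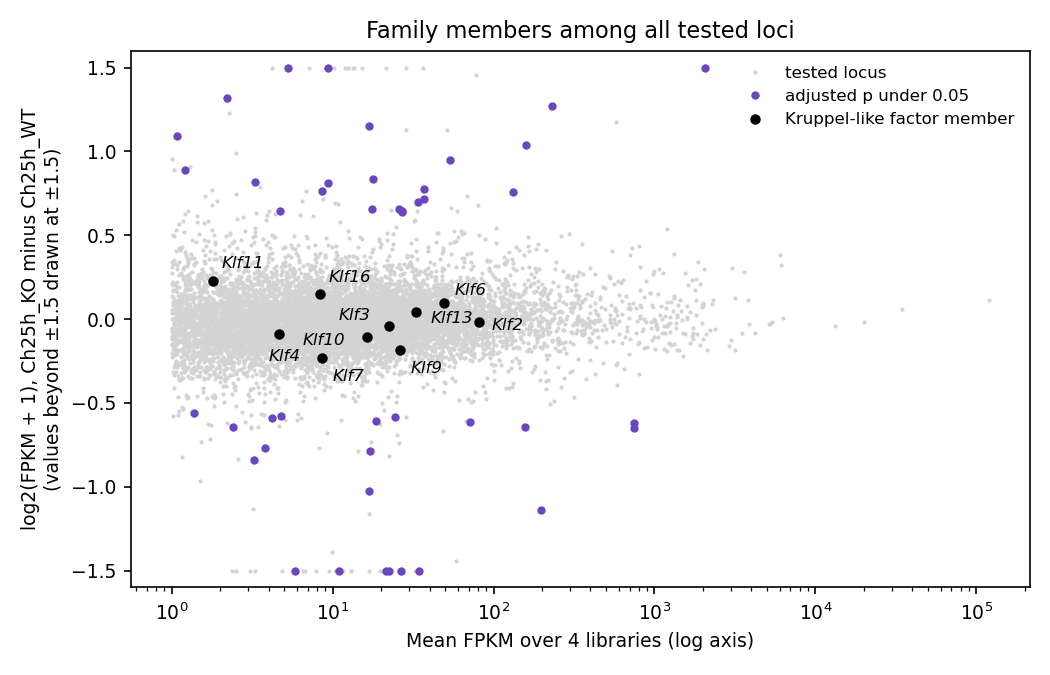
Difference between genotypes, Ch25h_KO minus Ch25h_WT on the log2(FPKM + 1) scale (vertical axis), against mean FPKM over 4 libraries (horizontal log axis). Grey points are the 10074 tested loci, purple points the 44 that passed the adjusted test and black points the 10 KLF members, which sit inside the grey cloud between -0.23 and 0.23.

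Each member's interval gives a range for its change on the log2(FPKM + 1) scale, as estimated from 2 libraries a group. That scale understates changes of low genes. The log2 change of Klf11 was 0.23 on it and 0.34 with a pseudocount of 0.1. The 95% intervals of the log2 change (limma) ran from -0.47 at the lowest, for Klf7, to 0.39 at the highest, for Klf11. Intervals of 8 of 10 members included 0. Ratios of mean FPKM, Ch25h_KO over Ch25h_WT, ranged from 0.836 for Klf7 to 1.28 for Klf11. A p that misses the threshold does not show equal levels.

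The levels of the members differed far more than the genotypes did. FPKM is a value per transcript length, so a comparison between genes rests on the length given to each, and the annotation used was not given. By approximate fragments, Klf6 (1900 to 2600) and Klf13 (2100 to 2600) stood above Klf2 (1400 to 1900). Their longest RefSeq-matched transcripts have 4225 and 6396 bases, and that of Klf2 has 1847. By FPKM, Klf2 stood first in every library and Klf11 last, with mean levels 45.3-fold apart. The order by mean FPKM over 4 libraries was Klf2 (81.5), Klf6 (49.1), Klf13 (33), Klf9 (26.2), Klf3 (22.4), Klf10 (16.3), Klf7 (8.65), Klf16 (8.35), Klf4 (4.64) and Klf11 (1.80). Between neighbours in this order the ranges over 4 libraries were separate, except for Klf7 and Klf16. Klf9 and Klf3 came close, with the lowest Klf9 value at 24.3 FPKM and the highest Klf3 value at 23.7 FPKM. Klf2 ranked above 90.9% of the tested loci, Klf4 above 26.6% and Klf11 above 8.18%. The 10 members summed to 258 and 248 FPKM in the Ch25h_WT libraries and to 249 and 253 FPKM in the Ch25h_KO libraries. Klf2 alone made up 31.5% to 33.2% of that sum, and Klf2, Klf6 and Klf13 together 63.4% to 66.3%.

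**Figure D2:**
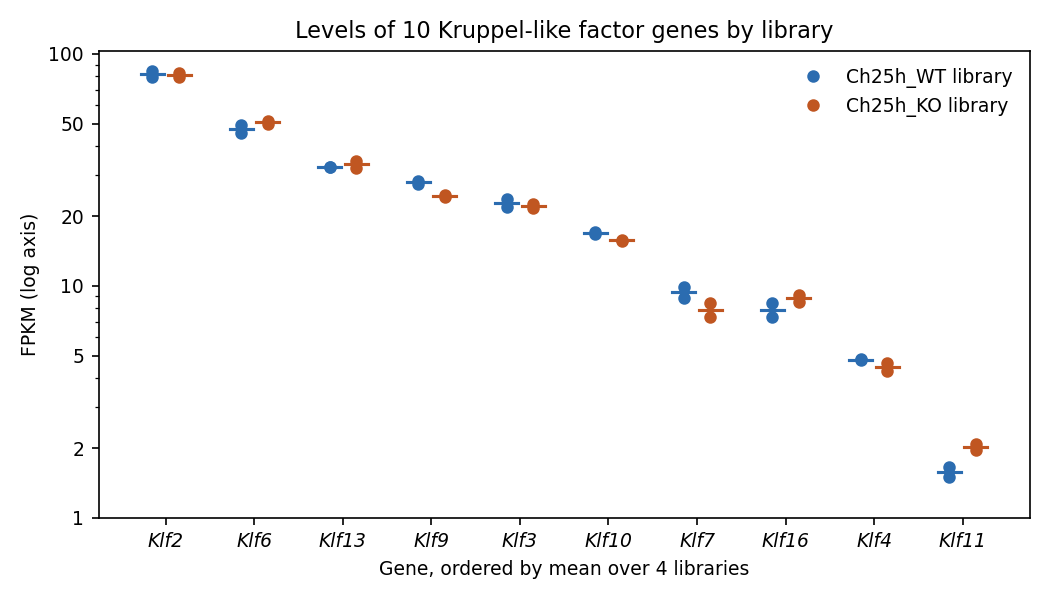
FPKM (log axis) of each KLF member in each library, with Ch25h_WT in blue and Ch25h_KO in orange. Points are libraries and short lines are means of 2 libraries. The steps between genes, from Klf2 near 80 FPKM to Klf11 near 2 FPKM, are far larger than the distance between the colours.

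Klf2, Klf4, Klf6 and Klf7 are the members of the set described mainly as activators. Klf2, which keeps lymphocytes and myeloid cells quiescent, was 84.4 and 79.5 FPKM in Ch25h_WT and 82.6 and 79.6 FPKM in Ch25h_KO. The Ch25h_KO values lay inside the range of the Ch25h_WT values. Its log2 change was -0.014, with a 95% interval from -0.17 to 0.14 (limma adjusted p = 0.917). Behind each of these values stood about 1400 to 1900 fragments, for which counting error alone is 2.3% to 2.7%. Klf6, an early response gene that promotes inflammatory gene expression in macrophages, was 49.4 and 45.5 FPKM against 49.9 and 51.6 FPKM. The Ch25h_KO libraries were both higher, but the gap between the Ch25h_WT libraries was wider than the gap between the groups. Its log2 change was 0.097 (SE 0.065, limma adjusted p = 0.452).

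Klf4, best known as a reprogramming factor and as a driver of monocyte differentiation and alternative activation, was 4.84 and 4.78 FPKM in the Ch25h_WT libraries. In the Ch25h_KO libraries it was 4.27 and 4.67 FPKM. Both Ch25h_KO values were lower, but the gap between the Ch25h_KO libraries was wider than the gap between the groups. The log2 change was -0.087, with a 95% interval from -0.25 to 0.074 (limma adjusted p = 0.470). These values rest on about 130 to 180 fragments a library, with a counting error of 7.4% to 8.7%. Klf2 was 16.6 to 19.3 times the level of Klf4 in each library. Klf7, a regulator studied mostly in neurons and adipocytes, was 8.90 and 9.94 FPKM against 7.33 and 8.42 FPKM. Both Ch25h_KO libraries were lower, and its log2 change of -0.23 was the largest on that side among the members (SE 0.090, unadjusted p = 0.0534, limma adjusted p = 0.246). The spread within each group was wider than the distance between the groups' nearest values.

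The pathway upstream of Klf2 and Klf4 is a kinase chain in which MEK5 activates ERK5, which in turn activates MEF2 factors at the Klf2 promoter. The 250 bases before the Klf2 start are shown because they hold a match to the MEF2 motif, and those of Klf9 and Klf11 because these members had the smallest p on either side. Sequences are from RefSeq on GRCm38.p6, another build than the mm9 of the values, and 8 of 10 members had an entry (not Klf10 and Klf16). Capitals mark CACCC, the KLF box, GGGCGG, the GC box, and the MEF2 motif, each on either strand; the leftmost GC boxes of Klf11 overlap. The 3 stretches follow 5′ to 3′ on the gene's + strand, Klf2 at chr8:72318812-72319061, Klf9 at chr19:23140976-23141225 and Klf11 at chr12:24651121-24651370.
Klf2: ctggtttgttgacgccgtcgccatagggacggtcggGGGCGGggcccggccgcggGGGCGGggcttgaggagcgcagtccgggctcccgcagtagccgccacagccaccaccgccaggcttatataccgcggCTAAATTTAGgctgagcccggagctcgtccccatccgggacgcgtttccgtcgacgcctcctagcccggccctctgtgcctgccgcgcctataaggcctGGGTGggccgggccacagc
Klf9: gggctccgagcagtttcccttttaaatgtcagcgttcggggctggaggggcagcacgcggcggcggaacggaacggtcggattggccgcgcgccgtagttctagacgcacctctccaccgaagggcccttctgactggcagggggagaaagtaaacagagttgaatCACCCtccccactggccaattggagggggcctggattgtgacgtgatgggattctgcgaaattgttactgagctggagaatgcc
Klf11: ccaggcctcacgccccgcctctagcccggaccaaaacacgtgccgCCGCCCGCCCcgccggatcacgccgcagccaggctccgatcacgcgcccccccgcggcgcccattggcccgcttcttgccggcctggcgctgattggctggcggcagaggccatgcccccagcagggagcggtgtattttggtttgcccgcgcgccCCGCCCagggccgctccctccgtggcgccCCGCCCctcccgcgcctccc
The MEF2 motif of Klf2 lay at bases -118 to -109 from the start. It was in 1 of 8 members and in 959 of 32851 promoter windows of this length (2.92%). The KLF box was in 5 of 8 members and in 52.0% of all windows, and the GC box was in 7 of 8 members and in 32.7% of all windows. Klf9 held a KLF box and no GC box in this window, and Klf11 held GC boxes and no KLF box. A match of letters is a description and not a shown binding site.

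None of the 7 tested genes of the MEK5-ERK5-MEF2 chain passed the adjusted test (limma), and 0 had an unadjusted p under 0.05. Their median log2 change was 0.040, with 4 above 0 and 3 below. Map3k3, a kinase that activates MEK5 and the most abundant of the list, was 38.2 and 39.5 FPKM against 34.8 and 36.4 FPKM (limma adjusted p = 0.307).

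Klf3 recruits the corepressor CtBP and is a repressor of fat cell and lymphocyte genes. It was 23.7 and 21.8 FPKM in Ch25h_WT and 21.6 and 22.5 FPKM in Ch25h_KO. The groups overlapped, and the log2 change was -0.043, with a 95% interval from -0.22 to 0.13 (limma adjusted p = 0.746). Of the corepressor genes, Ctbp1 and Ctbp2 were both tested and neither was called.

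Klf9, Klf10, Klf11, Klf13 and Klf16 form the branch that recruits the corepressor Sin3, and the 2 members with an unadjusted p under 0.05 were both in it. They lay on opposite sides. Klf9, which is induced by glucocorticoids and thyroid hormone, was 28.4 and 27.5 FPKM in the Ch25h_WT libraries. In the Ch25h_KO libraries it was 24.6 and 24.3 FPKM. The groups did not overlap, and the gap between them was wider than the gap within either. The mean level in Ch25h_KO was 0.874 of that in Ch25h_WT, and the change in log2(FPKM + 1) was -0.19 (SE 0.053, unadjusted p = 0.0192, limma adjusted p = 0.169). With any 1 library left out the unadjusted p lay between 0.051 and 0.0945.

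Klf11 (TIEG2), which is induced by TGF-beta and studied in insulin-producing and liver cells, was 1.66 and 1.5 FPKM in the Ch25h_WT libraries. It was 1.97 and 2.08 FPKM in the Ch25h_KO libraries. Here too the groups did not overlap, with Ch25h_KO on the higher side. The ratio of means was 1.28 and the log2 change 0.23, which understates a gene this low (SE 0.061, unadjusted p = 0.0149, limma adjusted p = 0.157). The values rest on about 61 to 84 fragments a library, with a counting error of 11% to 13%. With limma's trend and robust options the unadjusted p of Klf11 was 0.0701, and that of Klf7 was 0.0308. The ratio of Klf9 to Klf11, looked at after these values were seen, was 17.1 and 18.3 in the Ch25h_WT libraries and 12.5 and 11.7 in the Ch25h_KO libraries.

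Klf10 (TIEG1), the other TGF-beta-induced member, was 17.1 and 16.8 FPKM against 15.5 and 15.8 FPKM. Both Ch25h_KO libraries were lower, on the side opposite to Klf11. The log2 change was -0.11, with a 95% interval from -0.24 to 0.032 (limma adjusted p = 0.331). Klf13 (RFLAT-1), known for late activation of the chemokine gene Ccl5 in T cells, was 32.5 FPKM in both Ch25h_WT libraries. It was 32.3 and 34.7 FPKM in the Ch25h_KO libraries, so the groups overlapped (log2 change 0.040, 95% interval from -0.12 to 0.20, limma adjusted p = 0.737). Klf16, first studied as a repressor of dopamine receptor genes, was 7.32 and 8.45 FPKM against 8.53 and 9.12 FPKM. Both Ch25h_KO libraries were higher, by 0.15 on the log2 scale (SE 0.084, limma adjusted p = 0.382). The gap between the Ch25h_WT libraries was wider than the gap between the groups. The log2 change of Klf16 was 0.055 without Ch25h_WT replicate 1 and 0.24 without Ch25h_WT replicate 2. Klf7 stood above Klf16 in both Ch25h_WT libraries and below it in both Ch25h_KO libraries, an order noticed after the values were seen and not tested.

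**Figure D3:**
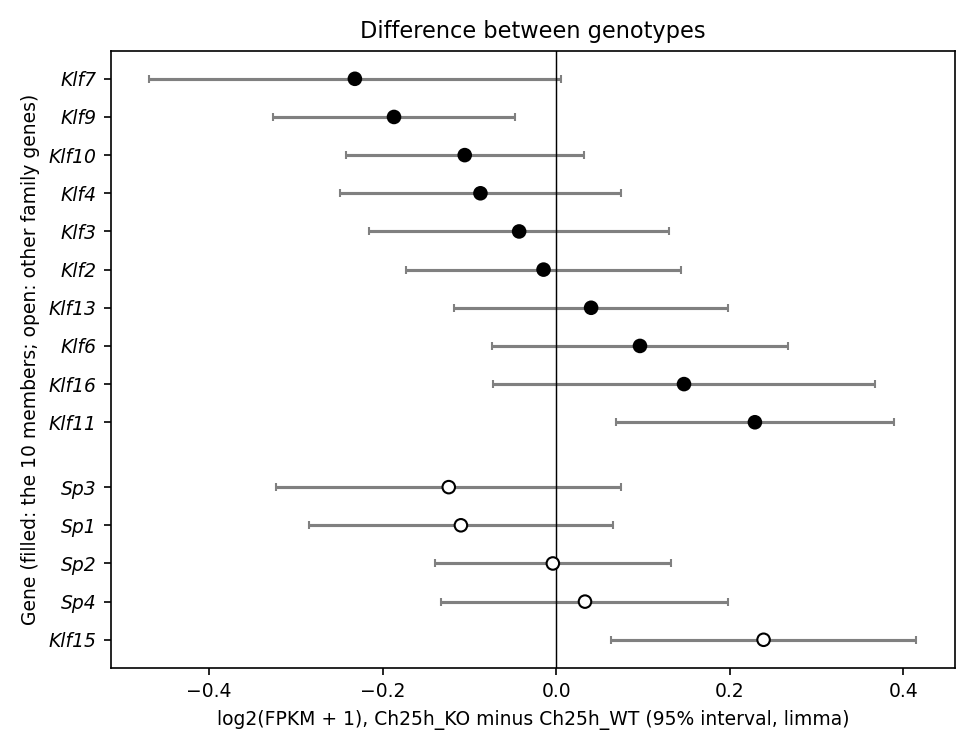
Log2(FPKM + 1) difference, Ch25h_KO minus Ch25h_WT, with its 95% interval from limma. Filled points are the 10 members and open points the 5 other KLF and SP genes that were tested. Intervals of Klf9, Klf11 and Klf15 leave out 0 before adjustment, and none passed after it.

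The rest of the family was mostly silent or low, apart from Sp1, Sp2 and Sp3 at mean levels of 14.3, 10.9 and 14.7 FPKM. Of 16 further KLF and SP genes, 5 reached the filter, and 6 were listed at 0 FPKM in all 4 libraries (Klf14, Klf17, Sp5, Sp7, Sp8 and Sp9). Nearly all low values of the table are whole multiples of the value of 1 fragment, and the counts given next are the smallest whole numbers that fit a gene's values. Klf1, the erythroid member, had 0 and 1 fragments in the Ch25h_WT libraries and 3 and 0 in the Ch25h_KO libraries. Klf5, an epithelial member, had 2 and 1 against 0 and 1, although its transcript length implies about 3.9 and 2.0 against 0 and 2.0. Klf12 had 2 and 1 against 4 and 1. Klf8 had 7 and 9 against 7 and 12. These 4 genes were under the filter and were not tested. None of the 5 tested genes was called (limma), and 1 had an unadjusted p under 0.05 (20%, beside 20.9% of all tested loci). This was Klf15, a metabolic regulator induced by glucocorticoids, at 0.929 and 1.08 against 1.29 and 1.43 FPKM, close to the filter (log2 change 0.24, limma adjusted p = 0.167). The SP factors Sp1 and Sp3, which bind the same GC-rich sequences, had log2 changes of -0.11 and -0.12, with limma adjusted p of 0.411 and 0.412.

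Partners and inducers of the members were read from lists. Of 11 tested KLF co-regulators 0 were called (limma), and 3 had an unadjusted p under 0.05. That share was 27.3%, beside 20.9% of all tested loci. Sin3b, a scaffold that the Klf9 branch recruits, was 96.1 and 97.9 against 107 and 110 FPKM. The acetyltransferase gene Kat2b was 5.17 and 4.2 against 5.87 and 5.71 FPKM, and the deacetylase gene Hdac2 was 23.9 and 24.5 against 22.3 and 20.3 FPKM. For these 3 genes the limma adjusted p lay between 0.208 and 0.234. The list's median log2 change was -0.036.

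Of 11 tested genes of the TGF-beta pathway, which induces Klf10 and Klf11, 0 were called (limma) and 3 had an unadjusted p under 0.05. Here too the share was 27.3%, beside 20.9% of all tested loci. The ligand gene Tgfb1 was 171 and 171 against 217 and 205 FPKM (log2 change 0.30, limma adjusted p = 0.111). The pathway repressor gene Ski was 21.8 and 20.4 against 25.0 and 24.9 FPKM, and the ubiquitin ligase gene Smurf2 was 9.63 and 9.44 against 8.54 and 8.46 FPKM. Beside these, Klf11 lay on the higher and Klf10 on the lower side. The list's median log2 change was -0.0059.

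Klf9 and Klf15 are both induced by glucocorticoids, and 5 of 6 genes of the receptor and its response were tested. None was called (limma), and 3 had an unadjusted p under 0.05 (60% of few genes, beside 20.9% of all tested loci). The kinase gene Sgk1 was 60.5 and 58.5 against 78.7 and 77.8 FPKM (log2 change 0.39, limma adjusted p = 0.0783). The clock gene Per1 was 20.9 and 20.1 against 22.9 and 23.5 FPKM. Nr3c1, which encodes the glucocorticoid receptor, was 22.9 and 22.2 against 20.3 and 19.9 FPKM (limma adjusted p = 0.219). Also tested, Fkbp5 had a log2 change of -0.10 and Tsc22d3 of 0.15. Klf9, Nr3c1 and Fkbp5 were thus on the lower side and Klf15, Sgk1, Per1 and Tsc22d3 on the higher, all without a call.

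Genes reported as controlled by KLF2, KLF4 or KLF13 held calls in both directions. Of 12 tested, 4 were called (limma, Benjamini-Hochberg), 2 in each direction, beside 0.437% of all tested loci, and 8 had an unadjusted p under 0.05. The list was drawn up with earlier results on these libraries known, so its counts are no independent evidence. Nos2, the inducible nitric oxide synthase gene that KLF4 is reported to repress, rose from 36.3 and 36.5 to 70.8 and 72.0 FPKM (log2 change 0.95, limma adjusted p = 0.0117). Ccl5, a T cell chemoattractant gene, rose from 127 and 142 to 333 and 319 FPKM (log2 change 1.27, limma adjusted p = 0.0159). Arg1, the arginase gene that KLF4 is reported to induce, fell from 920 and 910 to 595 and 573 FPKM, a log2 change of -0.65 (limma adjusted p = 0.035). Retnla, another marker of alternative activation, fell from 900.2 and 909 to 589 and 589 FPKM (limma adjusted p = 0.035). Beside these, Klf4 had a log2 change of -0.087 and Klf13 of 0.040. The list's median log2 change was 0.076, and whether KLF proteins bear on its genes was not measured. The lists of related genes held 5 calls in all, and 0 or 1 calls when a library was left out.

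Several members, among them Klf2, Klf4, Klf6 and Klf10, behave as early response genes in other settings. Of 17 tested immediate early genes, 1 was called (limma, Benjamini-Hochberg), beside 0.437% of all tested loci. An unadjusted p under 0.05 (limma) was found in 10, all 10 higher in Ch25h_KO. That share was 58.8%, beside 9.38% of all tested loci on that side. Egr1 rose from 20.6 and 21.2 to 33.5 and 32.9 FPKM (log2 change 0.64, limma adjusted p = 0.035). Dusp1, a phosphatase gene that ends MAP kinase signalling, was 242 and 242 against 342 and 346 FPKM (limma adjusted p = 0.0522). The list's median log2 change was 0.19, beside -0.014 for all tested loci. The 4 KLF members had log2 changes of -0.014, -0.087, 0.097 and -0.11 in the order named. The difference between the list and these members was not tested.

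**Figure D4:**
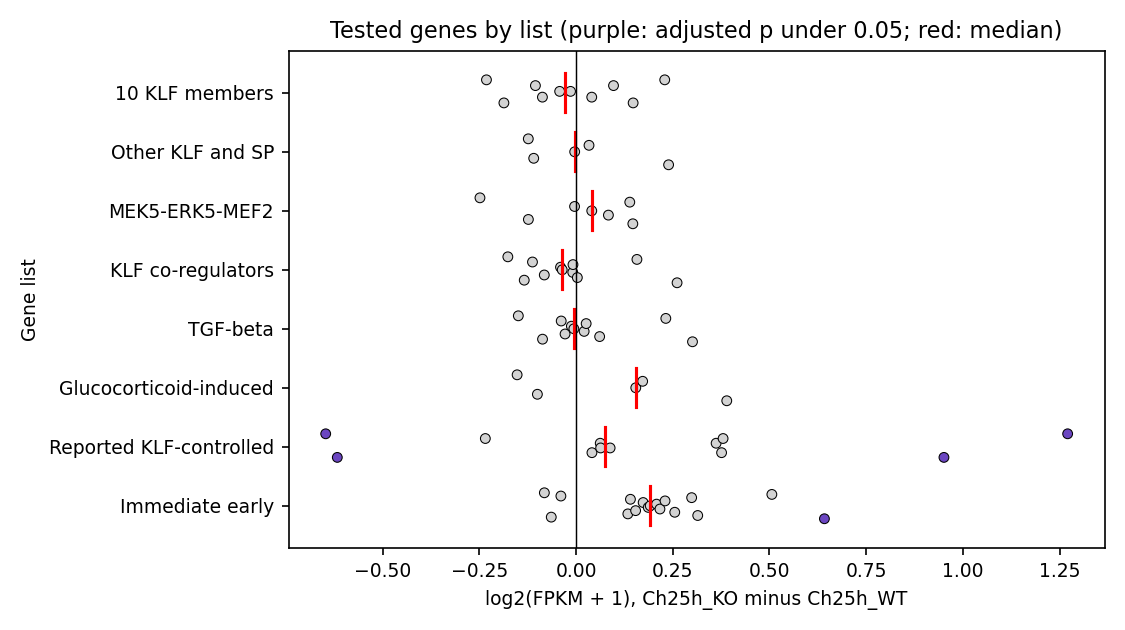
Log2(FPKM + 1) difference, Ch25h_KO minus Ch25h_WT, of the tested genes of each list, 1 point a gene, with the median as a red line and genes past the adjusted test in purple. The KLF members and their partners centre near 0, with medians of -0.029 and -0.036, and the purple points stand in the lists of reported KLF-controlled genes and of immediate early genes.

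Other cells in the cultures also carry KLF transcripts. In bulk RNA, fewer cells of a type and less RNA per cell cannot be told apart. B cells are rich in Klf2, Klf3 and Klf13. All 6 B cell markers were expressed and tested, with a summed level of 334 and 338 FPKM in Ch25h_WT and 304 and 321 FPKM in Ch25h_KO. Of them 0 were called (limma), and 33.3% had an unadjusted p under 0.05, beside 20.9% of all tested loci. There was 1 on the higher side, Blk (16.8 and 17.6 against 19.5 and 20.4 FPKM), and 1 on the lower. T and NK cell markers summed to 22.5 and 26.0 against 26.9 and 25.2 FPKM, of which Cd2 gave most, and Cd3e was 0.583 to 1.44 FPKM. Endothelial cells carry Klf2 and Klf4, and of 6 endothelial markers Tie1 and Tek were listed at 0 and Cdh5 was at most 0.0989 FPKM. Pecam1, which macrophages also express, was 5.06 against 4.27 FPKM on average. Mesothelial markers summed to at most 0.605 FPKM in any library, with Krt19 the most abundant and Upk1b listed at 0.

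Mast cell markers summed to 215 and 221 FPKM in Ch25h_WT and to 147 and 152 FPKM in Ch25h_KO. All 5 tested had an unadjusted p under 0.05 on the lower side, beside 11.5% of all tested loci, and 0 were called (limma). Cpa3 stood at 31.3 against 19.1 FPKM and Tpsb2 at 59.9 against 37.4 FPKM on average. Neutrophil markers summed to 72.9 and 83.0 against 117 and 117 FPKM, nearly all of it S100a8 and S100a9, while Ngp and Ltf were at or near 0. S100a8 alone was 61.4 against 98.8 FPKM on average. Of the markers under the filter, Camp (1.13 against 0.675 FPKM) and Mmp8 (0.924 against 0.726 FPKM) were lower in Ch25h_KO. Retnlg (0.797 against 0.875 FPKM) was slightly higher. None of the 2 tested neutrophil and 3 tested erythroid loci was called (limma). In each list 2 had an unadjusted p under 0.05, beside 20.9% of all tested loci. Globin and other erythroid markers summed to 31.4 and 34.3 against 44.8 and 47.5 FPKM, with Hba-a1 and Hbb-b1 higher in Ch25h_KO. Hba-a1 shares its loci with Hba-a2 and Hbb-b1 with Hbb-bs, so their levels are uncertain. Macrophage markers had a median log2 change of -0.029, with 2 above 0 and 6 below, and 0 of 8 were called (limma). The 2 higher ones, Cd14 (5233 against 6810 FPKM) and Fcgr1 (4.27 against 4.81 FPKM), had an unadjusted p under 0.05 (limma). That share was 25%, beside 20.9% of all tested loci. Among the 6 lower ones, Adgre1 was 422 against 384 FPKM and Csf1r 311 against 283 FPKM on average. Which part of the KLF values came from which cells was not tested.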

How the data were processed

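Per the labels' protocols, total RNA of cultured peritoneal macrophages came from a mirVana extraction and went into Illumina libraries. TopHat2 2.0.14, Cufflinks 2.2.1, bcl2fastq and the build mm9 stand in the submitters' processing notes. Annotation, strand, filters and scaling were not given in the sources used here. Deposited was 1 value per locus and library that fits FPKM, although the header names no unit. Lines of the same locus (24192 lines) were joined into 23735 loci, of which 340 carry several symbols, and 0 columns were left out.

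Differences were fitted in R 4.3.3 with limma 3.58.1, using log2(FPKM + 1) of the 10074 loci whose mean reached 1 FPKM, with genotype as the single term and adjustment over all of them. This scale understates changes of low genes. The fit was tested on simulated data whose changes were all larger than those of the members, so that test does not address changes of their size. Relative depth came from the most common ratios of low values. Of 2274 loci under 0.2 FPKM and above 0 in more than 1 library, 94.5% held whole fragments. The tolerance was 0.01 fragments and widened at higher counts, and the smallest value was tried as 1 to 12 fragments. Absolute depth used 420 loci with 1 transcript of known length, and fragments per gene used the longest RefSeq-matched transcript, so these are approximate.

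The members and lists were chosen with earlier results of these data known. Named genes are the 10 members, Ch25h, Apoe and, from each list, at most 2 higher and 2 lower genes of smallest unadjusted p under 0.05, or else its most abundant gene. Any further gene was picked with its values in view, and some list genes are not reported here. Alternatives were other pseudocounts, filters, variance models, scalings, a replicate block and leaving out each library.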

Additional observations from a re-analysis of the deposited data

How the results depend on the processing

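No KLF member was called (adjusted p under 0.05) under any of the 13 alternatives, and the smallest adjusted p of a member in any of them was 0.0736, for Klf9 with limma's trend and robust options. Of 128 member values 5 changed sign, all of them small. Klf2 changed to 0.0019 with median ratio scaling, to 0.028 without Ch25h_WT replicate 1 and to 0.012 without Ch25h_KO replicate 2. Klf3 changed to 0.015 without Ch25h_WT replicate 1 and Klf13 to -0.0089 without Ch25h_KO replicate 2. With a library left out, the log2 change of Klf2 ranged from -0.057 to 0.028, that of Klf3 from -0.10 to 0.015 and that of Klf13 from -0.0089 to 0.090. The members at an unadjusted p under 0.05 numbered 2, with 1 higher and 1 lower. There were 3 with the replicate block (Klf7, Klf9 and Klf11). The 2 were both lower, Klf7 and Klf9, at a mean of at least 5 FPKM, where Klf11 was not tested, and with trend and robust options. There was 1 with each library left out (lowest and highest both 1): Klf11 without Ch25h_WT replicate 1 or Ch25h_KO replicate 1, Klf16 without Ch25h_WT replicate 2 and Klf7 without Ch25h_KO replicate 2.

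The 44 calls over all loci became 29 with a pseudocount of 0.5, 175 at a mean of at least 5 FPKM, 18 with no filter, 786 with trend and robust options and 13 to 21 with a library left out. The 5 calls over the lists of related genes became 2 with a pseudocount of 0.1 or 0.5, 11 at a mean of at least 5 FPKM, 2 with no filter, 19 with trend and robust options and 0 to 1 with a library left out. The cause was not tested. Replicate numbers are shared only as title suffixes: the differences between replicates 1 and 2 in the 2 groups correlated at 0.012 across loci, which does not pair them. With the replicate block 6 loci, 0 list genes and 0 members were called. No scaling moved the median of all loci by over 0.1.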
